A study of Mus musculus with 6 samples.

Results

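The mitochondrial ribosomal protein genes of the mouse melanoma line B16 are described here, taken as every entry of the count table whose gene name begins with Mrpl or Mrps followed by a digit. That rule gave 77 genes of 22740, 47 named Mrpl for the large subunit and 30 named Mrps for the small subunit. The mitochondrial ribosome translates the few membrane subunits of the respiratory chain and ATP synthase that mitochondrial DNA encodes. Its RNA is made in the mitochondrion, whereas all its proteins are encoded in the nucleus, made in the cytosol and imported, so that assembly needs balanced supply from both genomes. Some of these proteins descend from bacterial ribosomal proteins and others were added during mitochondrial evolution.

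RNA sequencing compared B16 cells given 1 uM CX-5461 for 3 days (n = 3) with B16 cells given the solvent DMSO for 3 days (n = 3). CX-5461 inhibits RNA polymerase I, the enzyme that transcribes cytosolic ribosomal RNA, and its other known targets include G-quadruplex DNA and topoisomerase II. All 6 libraries came from the same line, recorded as lacking the BRAF V600E mutation and called B16-F10 in the series description, and the cells grew in DMEM with 10% serum and antibiotics. The labels do not say whether replicates were separate cultures, so the p-values measure the spread between these libraries, which may be technical. Library totals were 17877481 to 22908309 counts for CX-5461 and 17573990 to 20198979 for DMSO, and levels are given as CPM, counts normalised to the library total after TMM scaling. The CX-5461 libraries differed among themselves more than the DMSO libraries did, with a chi-square of the gene counts, divided by its degrees of freedom, of at least 5.42 in any pair of CX-5461 libraries and at most 2.52 in any pair of DMSO libraries. CX-5461 replicate 2 was the farthest from the others. All 7 melanocyte markers rose, with Mitf at a log2 change of 2.18 and Mlana at 1.46, and their summed level was 28250 to 30560 CPM with CX-5461 and 22080 to 22930 CPM with DMSO. A set of 10 markers of blood, epithelial, endothelial and connective tissue cells summed to 31.3 to 32.9 CPM with CX-5461 and 9.05 to 11.4 CPM with DMSO, with Cd3e, Krt5 and Cdh5 at 0 counts in all 6 libraries. Only 3 of these passed the filter on low counts, and Col1a2 and Lyz2 rose (log2 3.51 and 2.21) while Col1a1 fell (-1.30). The part of these markers in the results below was not tested. In bulk samples, fewer cells of a kind and less RNA per cell cannot be told apart.

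The mitochondrial ribosomal protein genes did not move as a block after CX-5461. Of 76 tested members, 20 rose, 31 fell and 25 did not pass the test (edgeR's quasi-likelihood test, Benjamini-Hochberg adjusted over all genes, threshold 0.05). The members called in either direction were thus 67.1% of those tested, beside a background of 73.7% of 12198 tested genes, of which 37.2% rose and 36.5% fell. The median log2 change (CX-5461 over DMSO) was -0.07 for the members and -0.005 for all tested genes. The members' median was -0.033 without CX-5461 replicate 1 and -0.103 without CX-5461 replicate 2. The SD of the log2 changes was 0.38 over the members and 0.87 over all tested genes, which were not matched on level. Changes of at least 1.5-fold were reached by 4 members upward and 7 downward, which is 5.26% and 9.21% of those tested, against 20% and 12.2% of all tested genes. In 53 members the 3 libraries of each group did not overlap, 69.7% of those tested, against a background of 76.2%. Scaling that removes a trend with gene span altered the balance to 26 higher and 26 lower members, and scaling by library totals alone gave 17 higher and 38 lower. By library totals alone the calls of all tested genes also shifted toward falls, with a median log2 change of -0.079. With the gene-span trend all tested genes had slightly fewer rises and slightly more falls than in the main fit, unlike the members. The remaining gene, Mrpl53, had 2 to 6 counts per library and was not tested; 88.0% of its exonic bases also belong to Gm42688 on the same strand.

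**Figure D1:**
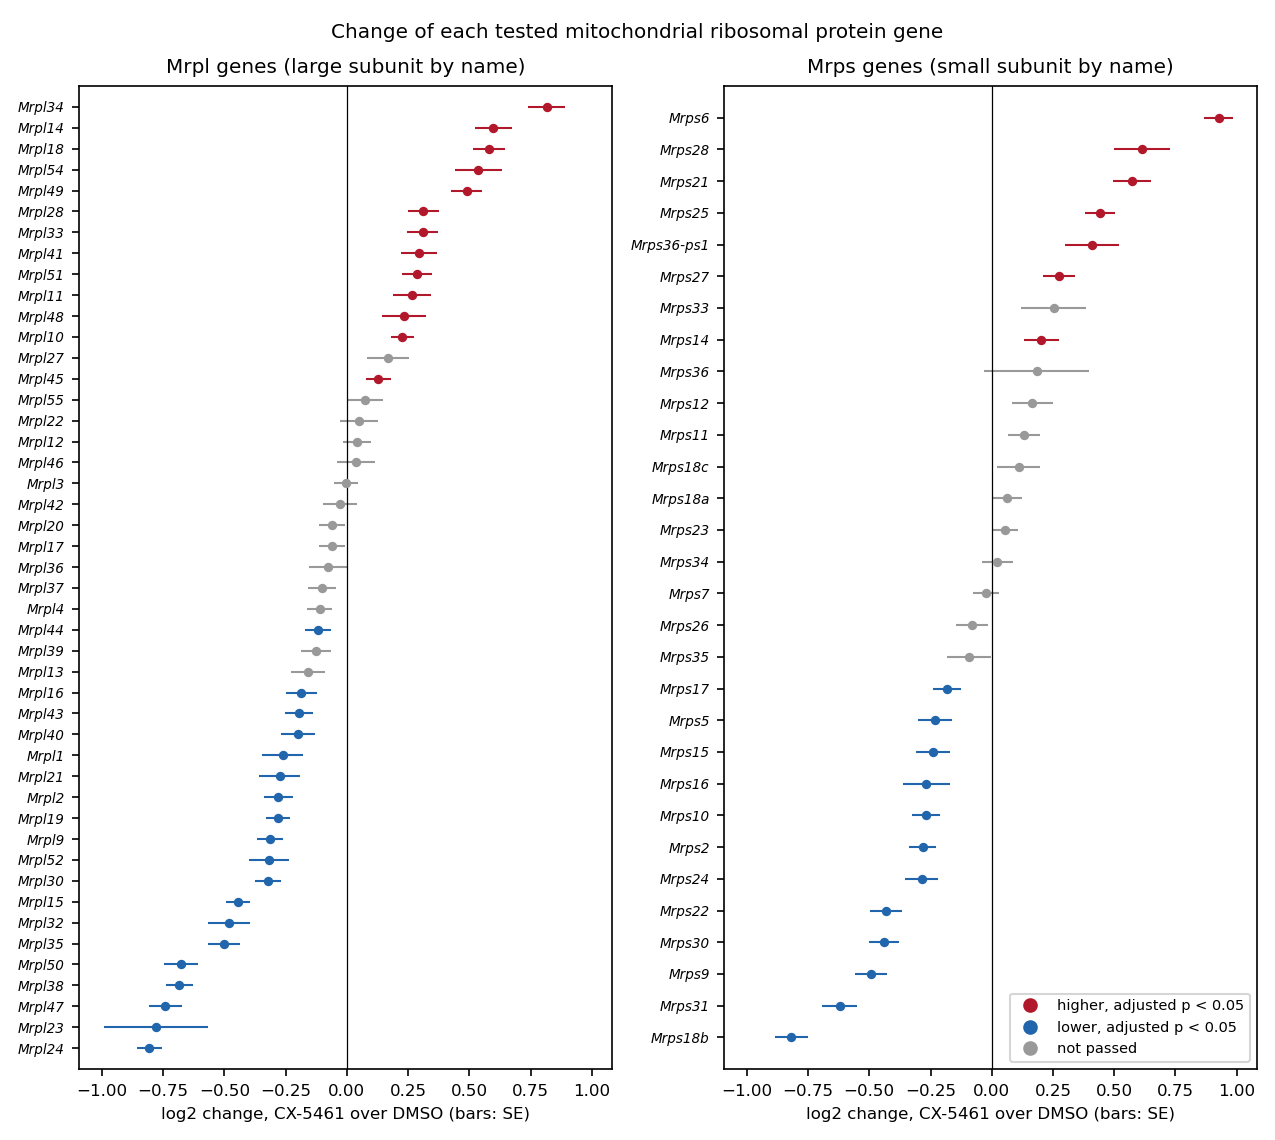
Log2 change of each tested member, CX-5461 over DMSO, with its standard error as a bar (x axis), for Mrpl genes on the left and Mrps genes on the right. Red marks a rise and blue a fall at an adjusted p under 0.05, and the changes lie between -0.82 for Mrps18b and 0.93 for Mrps6, with rises and falls in both panels.

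Both subunits held rises and falls. Among 46 tested Mrpl genes 13 were higher (28.3%), 19 were lower (41.3%) and 14 missed the threshold (median log2 change -0.09). Among 30 Mrps genes 7 were higher (23.3%), 12 were lower (40.0%) and 11 missed it (median 0.0004). Of all tested genes 37.2% were higher and 36.5% lower. The 30 Mrps genes include the processed pseudogene Mrps36-ps1. Without it 6 were higher and 12 lower, and the Mrps median was -0.022. The Mrps median was -0.073 without CX-5461 replicate 2, with 6 genes higher and 14 lower, and -0.082 without members that share exonic bases with another counted gene. The difference between the Mrpl and Mrps medians, -0.09, was -0.07 without Mrps36-ps1 and shrank to -0.03 without CX-5461 replicate 2. It was 0.02 once members that share exonic bases with another counted gene were left out. Names and structure differ for a few members: in the solved mammalian structures, known from pig and human, the products of Mrps18a and Mrps30 sit in the large subunit, and the product of Mrps36 is a component of the 2-oxoglutarate dehydrogenase complex. Grouped by where the protein sits, 13 of 48 tested large-subunit genes rose and 20 fell (27.1% and 41.7%). Of 26 small-subunit genes 6 rose and 11 fell (23.1% and 42.3%).

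Summed over genes, the Mrpl transcripts reached 2115, 2349 and 2183 CPM with CX-5461, against 2358, 2365 and 2374 CPM with DMSO. All 3 CX-5461 libraries lay below the DMSO libraries, and replicate 2 nearly met them. The Mrps transcripts summed to 1130, 1223 and 1147 CPM with CX-5461, against 1169, 1182 and 1171 CPM with DMSO, and here the groups overlapped. The ratio of the Mrpl to the Mrps sum was 1.87, 1.92 and 1.90 with CX-5461, against 2.02, 2.00 and 2.03 with DMSO, with no overlap. Without Mrpl24 alone the ratio was 1.80, 1.84 and 1.83 with CX-5461, against 1.88, 1.87 and 1.90 with DMSO, and without Mrps6 alone 2.07, 2.09 and 2.08 with CX-5461, against 2.12, 2.10 and 2.12 with DMSO, still with no overlap. With both left out, genes chosen because they had the largest rise among Mrps genes and the largest fall among Mrpl genes, it was 1.99, 2.00 and 2.00 with CX-5461, against 1.97, 1.97 and 1.98 with DMSO, which turns the order of the groups round.

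**Figure D2:**
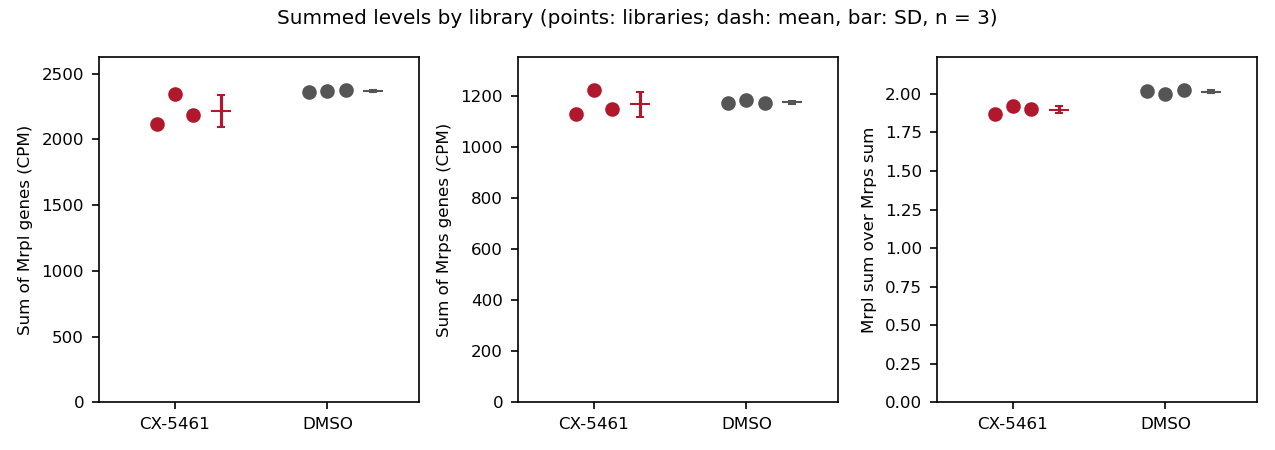
Summed CPM of the Mrpl genes (left), of the Mrps genes (middle) and the ratio of the sums (right) in each library, with CX-5461 left of DMSO and the mean and SD beside the points. The ratio lies at 1.87 to 1.92 with CX-5461 and at 2.00 to 2.03 with DMSO, while the Mrps sums of the groups overlap.

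Among the rises, Mrps6, homologue of a small-subunit protein of bacteria, was the largest (ENSMUSG00000039680, chr16:92058270-92112227, GRCm38). Its level was 108, 97.1 and 97.3 CPM with CX-5461, against 53.9, 55.1 and 49.9 CPM with DMSO. The groups were far apart, and the change was 1.90-fold, log2 0.93 ± 0.06 (SE), adjusted p = 1.216e-09 by edgeR's quasi-likelihood test. Mrps6 shares 159 bp of exon with Slc5a3, a myo-inositol transporter gene on the same strand, whose own log2 change was 0.51 (adjusted p = 0.0003624), so reads of that exon cannot be assigned to either gene with certainty. It also shares 305 bp, or 19.9% of its exonic bases, with Gm49711 on the same strand, which is absent from the counted genes.

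Mrpl34, which encodes the short homologue of a bacterial large-subunit protein, lies at chr8:71464959-71465747 (ENSMUSG00000034880). It had 32.4, 37.6 and 33.5 CPM with CX-5461, against 19.9, 18.8 and 20.05 CPM with DMSO. Every CX-5461 library was above every DMSO library, with a log2 change of 0.82 ± 0.08 (adjusted p = 1.091e-07). Mrpl14, homologue of the bacterial protein at the subunit interface and the known docking site of the assembly factor Malsu1, had 30.7, 35.3 and 34.3 CPM with CX-5461, against 22.9, 20.9 and 22.3 CPM with DMSO, again with no overlap (log2 0.60 ± 0.07, adjusted p = 3.061e-06). Mrpl14 shares 11.2% of its exonic bases with Tmem63b on the opposite strand. Tmem63b averaged 185.6 CPM with CX-5461 and 125.5 CPM with DMSO and rose by log2 0.56, so part of the Mrpl14 reads may belong to Tmem63b. Mrps28, of the small subunit, had 11.6, 14.4 and 11.98 CPM with CX-5461, against 8.52, 8.69 and 7.43 CPM with DMSO (log2 0.61 ± 0.11, adjusted p = 0.0001657), but its change was 0.29 under scaling by gene span (adjusted p = 0.03857). Mrps21, homologue of a small bacterial subunit protein, had 41.8, 50.6 and 42.2 CPM with CX-5461, against 30.4, 31.5 and 28.2 CPM with DMSO (log2 0.57 ± 0.08, adjusted p = 8.161e-06). In Mrps28 and Mrps21 alike CX-5461 replicate 2 was the highest library, and no CX-5461 library fell among the DMSO libraries.

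Further rises followed in both subunits. Mrpl18, homologue of the bacterial protein that binds the 5S RNA and here a part of the central protuberance, had 48.2, 55.1 and 53.5 CPM with CX-5461, against 33.4, 34.7 and 36.5 CPM with DMSO (log2 0.58 ± 0.07, adjusted p = 9.414e-07). Mrpl54, a mitochondria-specific protein of the stalk, had 18.9, 24.4 and 22.1 CPM with CX-5461, against 14.8, 14.6 and 15.5 CPM with DMSO (log2 0.54 ± 0.10, adjusted p = 0.0001251). In both genes the lowest CX-5461 library was replicate 1, and it still lay above all DMSO libraries. Mrpl49 had 37.4, 41.2 and 38.7 CPM with CX-5461, against 28.4, 27.6 and 27.6 CPM with DMSO (log2 0.49 ± 0.06, adjusted p = 4.999e-06). Mrps25 had 73.1, 79.9 and 80.8 CPM with CX-5461, against 54.4, 62.0 and 55.4 CPM with DMSO (log2 0.44 ± 0.06, adjusted p = 9.703e-06). Neither gene has a bacterial counterpart, and neither overlapped between groups. For Mrps25, 69.8% of the exonic bases overlap Nr2c2, a nuclear receptor gene on the opposite strand, which fell (log2 -0.17, adjusted p = 0.02864). Mrpl49 shares 4.85% of its exonic bases with Syvn1 on the opposite strand. Syvn1 averaged 187.6 CPM with CX-5461 and 133 CPM with DMSO and rose by log2 0.50. Mrpl18 shares 10.1% with Tcp1, also on the opposite strand, which fell (log2 -0.19).

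The entry Mrps36-ps1 is annotated as a processed pseudogene (chr17:53866715-53867020), so that its reads cannot be told with certainty from those of Mrps36. It had 9.32, 11.2 and 10.3 CPM with CX-5461, against 7.16, 7.82 and 8.15 CPM with DMSO (log2 0.41 ± 0.11, adjusted p = 0.003648). Mrps36 itself had 2.88, 5.06 and 2.83 CPM with CX-5461, against 3.06, 3.38 and 2.85 CPM with DMSO (log2 0.18 ± 0.22, adjusted p = 0.4506). The pseudogene entry was thus higher in every CX-5461 library, while Mrps36 overlapped and was raised in replicate 2 alone.

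Among the falls, Mrpl24 had the highest level per kb of exon. Its protein is homologous to a large-subunit protein that in bacteria acts early in assembly, and it lies near the exit of the peptide tunnel (ENSMUSG00000019710, chr3:87919506-87923672). It had 82.9, 94.4 and 87.7 CPM with CX-5461, against 158, 151 and 154 CPM with DMSO. The highest CX-5461 library lay well below the lowest DMSO library, at a log2 change of -0.81 ± 0.05 (adjusted p = 1.806e-09). Per kb of exon its level was 39.2 CPM with CX-5461 and 68.4 CPM with DMSO. Rrnad1, which overlaps 26.3% of its exonic bases on the opposite strand, changed by log2 -0.15 (adjusted p = 0.08943).

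Mrps18b, of the small subunit (ENSMUSG00000024436, chr17:35910379-35916389), had 20.4, 20.1 and 21.3 CPM with CX-5461, against 37.5, 35.0 and 36.6 CPM with DMSO. The replicates within each group were tight, and the log2 change was -0.82 ± 0.07 (adjusted p = 2.572e-08). Of the exonic bases of Mrps18b 30.5% overlap Gm16279 on the opposite strand, which is absent from the counted genes. Mrpl47, whose product also sits at the tunnel exit, had 22.3, 24.3 and 21.7 CPM with CX-5461, against 37.8, 38.0 and 38.3 CPM with DMSO, with no overlap (log2 -0.74 ± 0.07, adjusted p = 7.404e-08). On the opposite strand, 10.2% of the exonic bases of Mrpl47 overlap Actl6a, which did not pass (log2 0.04). A further 13.9% overlap Ndufb5, which rose (log2 0.28). Mrpl38, part of the central protuberance, had 55.7, 61.4 and 58.9 CPM with CX-5461, against 96.8, 96.2 and 89.6 CPM with DMSO (log2 -0.68 ± 0.05, adjusted p = 1.779e-08). Mrpl50, a mitochondria-specific protein, had 35.2, 34.5 and 30.6 CPM with CX-5461, against 50.4, 52.9 and 57.3 CPM with DMSO (log2 -0.68 ± 0.07, adjusted p = 3.081e-07). For Mrpl38 and Mrpl50 every CX-5461 library was below every DMSO library. Mrpl23, another protein of the tunnel exit, had 1.13, 1.27 and 1.36 CPM with CX-5461, against 2.40, 1.88 and 2.18 CPM with DMSO (log2 -0.78 ± 0.21, adjusted p = 0.003995), which rests on only 22 to 44 counts per library.

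Several long members named for the small subunit also fell. Mrps31, a mitochondria-specific protein, had 26.6, 31.4 and 27.4 CPM with CX-5461, against 45.0, 42.3 and 43.6 CPM with DMSO (log2 -0.62 ± 0.07, adjusted p = 1.04e-06). Mrps9, which has a bacterial homologue, had 37.4, 44.2 and 38.7 CPM with CX-5461, against 57.5, 54.4 and 57.1 CPM with DMSO (log2 -0.49 ± 0.07, adjusted p = 6.044e-06). In both, CX-5461 replicate 2 was nearest to the DMSO libraries without meeting them. Mrps22, mitochondria-specific, had 23.7, 22.8 and 23.8 CPM with CX-5461, against 31.2, 32.2 and 31.4 CPM with DMSO (log2 -0.43 ± 0.07, adjusted p = 2.358e-05). Mrps30, whose product sits in the large subunit despite its name, had 38.7, 42.6 and 40.4 CPM with CX-5461, against 51.3, 57.0 and 56.4 CPM with DMSO (log2 -0.44 ± 0.06, adjusted p = 1.07e-05), and its change was -0.29 with the GC trend (adjusted p = 0.0005434). Again no CX-5461 library reached the DMSO range.

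**Figure D3:**
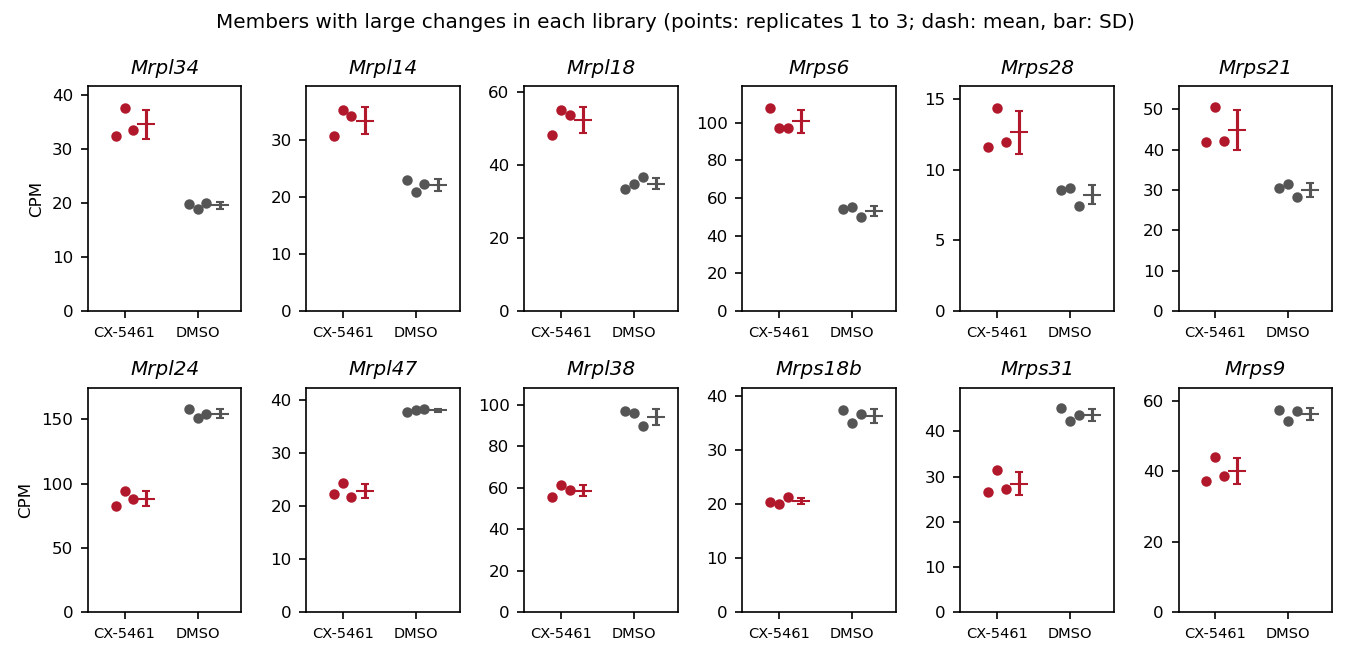
CPM in each library for 12 members with large changes, CX-5461 left of DMSO, with points for replicates 1 to 3 and the mean and SD beside them; each y axis starts at 0. In every panel the libraries of the groups do not overlap, for example Mrps6 at 97.1 to 108 CPM with CX-5461 and 49.9 to 55.1 CPM with DMSO.

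The other members moved less. A further 7 Mrpl genes, among them Mrpl28, Mrpl33, Mrpl41 and Mrpl51, rose by log2 0.23 to 0.31 and Mrps14 and Mrps27 by 0.20 and 0.27. Mrps14 lost the call without CX-5461 replicate 2, DMSO replicate 1 or DMSO replicate 2 (adjusted p = 0.0763, 0.1031 and 0.07611). A further 13 Mrpl genes changed by -0.50 to -0.19 and 7 Mrps genes by -0.29 to -0.18, all past the threshold. Among these, Mrps16 overlapped between groups and lost the call without CX-5461 replicate 1, CX-5461 replicate 3 or DMSO replicate 3 (adjusted p = 0.08391, 0.08272 and 0.06632). Mrpl1 and Mrpl16 lost it without DMSO replicate 2 (adjusted p = 0.07273 and 0.09998). Each passed in 16 of 19 ways of processing the counts. The change ran from log2 -0.34 to -0.07 for Mrpl1 (adjusted p up to 0.4905). For Mrpl16 it ran from -0.26 to -0.12 (adjusted p up to 0.121). At the low end stood Mrpl35, Mrpl32 and Mrpl15, all with bacterial homologues. Mrpl35 had 27.1, 30.0 and 28.9 CPM with CX-5461, against 38.9, 40.4 and 42.3 CPM with DMSO (log2 -0.50 ± 0.07, adjusted p = 4.764e-06). Mrpl32, whose maturation by the mitochondrial m-AAA protease is a known step of assembly, had 19.8, 24.9 and 20.2 CPM with CX-5461, against 29.7, 29.8 and 30.8 CPM with DMSO (log2 -0.48 ± 0.08, adjusted p = 0.0001054). Mrpl15 had 57.9, 59.8 and 58.1 CPM with CX-5461, against 77.7, 79.9 and 81.5 CPM with DMSO (log2 -0.44 ± 0.05, adjusted p = 7.834e-07). All 3 genes were lower in every CX-5461 library.

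Some members had changes close to 0 with a small error. Mrpl3 had 69.2, 70.8 and 67.7 CPM with CX-5461, against 68.7, 71.7 and 67.6 CPM with DMSO (log2 -0.003 ± 0.05, adjusted p = 0.9577). Mrps7, homologue of a bacterial protein that starts assembly of the small-subunit head, had 53.6, 52.1 and 53.7 CPM with CX-5461, against 52.5, 53.4 and 56.1 CPM with DMSO (log2 -0.02 ± 0.05, adjusted p = 0.7237). The groups overlapped in both. Mrpl45, the known membrane anchor of the mammalian mitochondrial ribosome, had 79.0, 86.8 and 83.4 CPM with CX-5461, against 75.5, 74.8 and 77.6 CPM with DMSO (log2 0.13 ± 0.05, adjusted p = 0.03509). Mrpl44, which has an RNase III-like fold, had 52.4, 54.6 and 53.2 CPM with CX-5461, against 57.0, 58.3 and 58.5 CPM with DMSO (log2 -0.12 ± 0.05, adjusted p = 0.04828). Both lie near the threshold and passed in 9 and 8 of 19 ways of processing the counts. Without 1 library Mrpl45 lost the call in every case but that of CX-5461 replicate 1 (adjusted p up to 0.1341), and Mrpl44 in every case but that of CX-5461 replicate 2 (up to 0.1289).

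The gene with the highest level per exonic length in each subunit did not pass. Exonic length joins all annotated exons of a gene, used or not, so levels per kb depend on the annotation. Mrpl13, for example, has 7936 bp of exon for 534 bp of coding sequence. Mrpl12, a stalk protein that in human cells is also known to bind the mitochondrial RNA polymerase, had 119, 141 and 123 CPM with CX-5461, against 125, 125 and 121 CPM with DMSO. The groups overlapped, with CX-5461 replicate 2 alone above the DMSO range, and the log2 change was 0.04 ± 0.06 (adjusted p = 0.5329). Per kb of exon it stood at 83.2 CPM with CX-5461 and 80.7 CPM with DMSO, the highest of the Mrpl genes, whose median over all libraries was 21.5 CPM per kb. Mrps23, a mitochondria-specific protein and the highest Mrps gene per kb, stood at 64.5 CPM per kb with CX-5461 and 62.0 with DMSO (log2 0.06 ± 0.05, adjusted p = 0.3304), and the median Mrps gene had 13.5 CPM per kb. Its libraries lay at 97.2, 105 and 99.4 CPM with CX-5461, against 92.7, 97.2 and 100 CPM with DMSO, and overlapped. Mrpl36 had 48.3, 61.8 and 50.8 CPM with CX-5461, against 54.3, 56.5 and 58.5 CPM with DMSO (log2 -0.08 ± 0.08, adjusted p = 0.3693). Without CX-5461 replicate 2 Mrpl36 stood at -0.193 and passed (adjusted p = 0.003372), as it did at -0.138 with the GC trend and replicate block (adjusted p = 0.04629). Mrps12, homologue of the bacterial protein at the decoding centre, had 31.2, 38.2 and 31.4 CPM with CX-5461, against 31.7, 30.0 and 27.9 CPM with DMSO (log2 0.17 ± 0.08, adjusted p = 0.08441). In Mrpl36 and Mrps12 CX-5461 replicate 2 was the highest of all 6 libraries and the groups overlapped.

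Regions of the large subunit held members that moved in different ways. In the stalk, which recruits translation factors, Mrpl10, Mrpl11 and Mrpl54 rose by log2 0.23, 0.27 and 0.54, and Mrpl12 did not pass. Mrpl10 had 85.4, 87.2 and 85.4 CPM with CX-5461, against 74.4, 73.9 and 72.4 CPM with DMSO, so that a small change was well separated from the replicate spread. Around the exit of the peptide tunnel, Mrpl24, Mrpl23 and Mrpl47 fell, Mrpl45 rose, and Mrpl17 and Mrpl22 did not pass (log2 -0.06 and 0.05). In the central protuberance Mrpl18 and Mrpl48 rose (0.58 and 0.23), Mrpl38 and Mrpl40 fell (-0.68 and -0.20), and Mrpl27 and Mrpl46 did not pass. Mrpl40 and Mrpl48 lost the call without CX-5461 replicate 1 (adjusted p = 0.07794 and 0.06053) and without DMSO replicate 3 (0.05778 and 0.1515), and Mrpl48 also without CX-5461 replicate 3 (0.06796). By ancestry, 11 of 46 members with a bacterial homologue rose and 21 fell (23.9% and 45.65%, median -0.09). Of 27 tested mitochondria-specific members 8 rose and 10 fell (29.6% and 37.0%, median -0.08). Over all tested genes 37.2% rose and 36.5% fell, so the falls of the mitochondria-specific members were near the background. Mrps18b is in the mitochondria-specific set there, although it has bacterial-related paralogs. Counted with the homologues, it makes them 11 higher and 22 lower of 47 (median -0.11) and leaves 8 higher and 9 lower of 26 (median -0.06).

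The paralogs Mrps18a, Mrps18b and Mrps18c, all related to a single bacterial small-subunit protein, had different values. Mrps18a had 47.5, 55.4 and 51.3 CPM with CX-5461, against 49.1, 48.9 and 49.4 CPM with DMSO, and Mrps18c had 19.4, 21.4 and 21.1 CPM with CX-5461, against 16.8, 20.5 and 19.9 CPM with DMSO. Both overlapped between groups and did not pass (adjusted p = 0.3705 and 0.2716), whereas Mrps18b fell as given above. The log2 ratio of Mrps18b to Mrps18a was -1.22, -1.46 and -1.27 with CX-5461, against -0.39, -0.48 and -0.43 with DMSO, with no overlap.

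Among the members, change varied with coding length. Across 74 tested members with an annotated coding sequence, Spearman's rho between the longest coding length and the log2 change was -0.44, so that short members tended to be higher and long members lower. Genes in this correlation share the same 6 libraries and are not independent replicates. The rho was -0.32 for 45 Mrpl genes and -0.60 for 29 Mrps genes, and -0.41 for the 52 members that share no exonic base with another counted gene. Over all 11955 tested genes with a coding length it had the other sign, 0.11. Cytosolic ribosomal protein genes gave -0.43 over 81 genes. Across 19 ways of processing the counts it ran between -0.47 and -0.36 for the members, and was smallest in size without CX-5461 replicate 2. Other gene features also went along with the change. Over 75 members the rho was -0.48 for exonic length, 0.28 for GC content and -0.11 for gene span. Over all tested genes these were 0.08, 0.09 and 0.22. For Mrpl genes exonic length gave -0.46 and for Mrps genes -0.52.

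Among 20 tested members with up to 450 bp of coding sequence, 8 rose and 3 fell, with a median log2 change of 0.18, against 0.01 for all tested genes of that length. The members that rose were 40% and those that fell 15% of that class, beside 35.1% and 31.0% of all tested genes of that length, so the share that rose was near the background. Mrps21, Mrpl34, Mrps6, Mrpl54 and Mrpl14 are among the rises of this class. Its falls were Mrpl52, Mrps16 and Mrps17 (log2 -0.32, -0.27 and -0.18). Of 18 members with over 450 and up to 600 bp, 5 rose and 7 fell (27.8% and 38.9%, median -0.07), beside 31.0% and 40.4% of all genes (median -0.06). Of those with over 600 and up to 900 bp, 3 of 21 rose and 12 fell (14.3% and 57.1%, median -0.20), beside 32.7% and 39.0% of all genes (median -0.05). Above 900 bp 2 of 15 rose and 9 fell (13.3% and 60.0%, median -0.23), beside 39.1% and 36.1% of all genes (median 0.02). The falls there included Mrpl38, Mrps31, Mrps9, Mrps30 and Mrps22, and the rises were Mrps27 and Mrpl45 (log2 0.27 and 0.13). RNA integrity was not analysed here, and its part in the length relation was not tested.

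**Figure D4:**
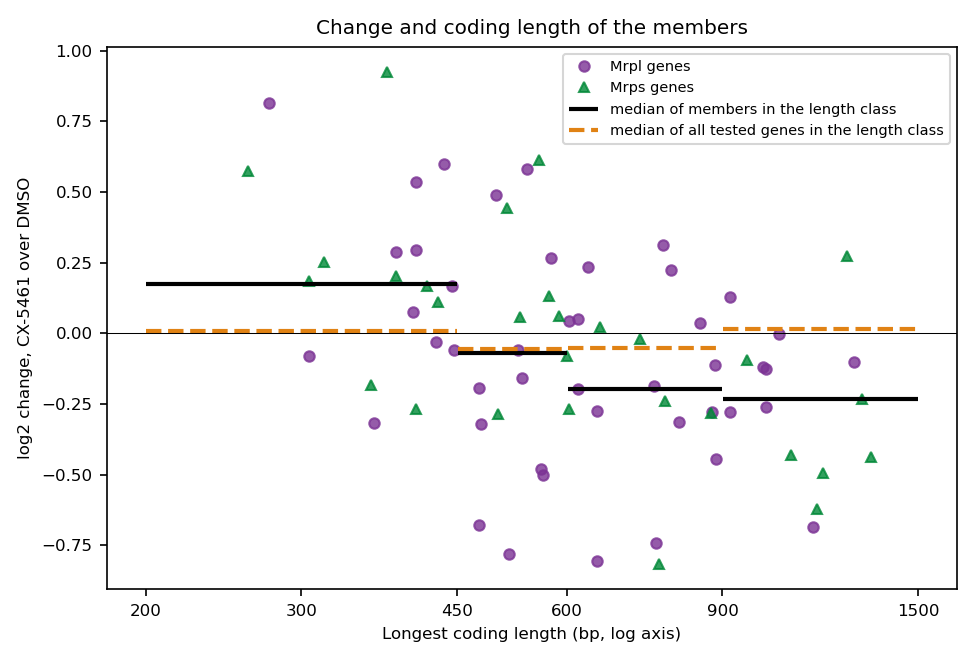
Log2 change of each tested member (y axis, CX-5461 over DMSO) against its longest annotated coding length (x axis, bp, log scale), with Mrpl genes as circles and Mrps genes as triangles. Solid bars give the members' medians per length class, 0.18, -0.07, -0.20 and -0.23, and dashed bars the medians of all tested genes, which stay between -0.06 and 0.02.

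Many of these genes begin close to a neighbour that is read in the other direction. A divergent start site within 1000 bp was annotated for 22 members, and in 8 of these pairs both genes passed, 5 in the same direction and 3 in opposite directions. Of the 22 neighbours 12 passed, or 54.5%, and of the 22 members 15 passed, or 68.2%, beside the 73.7% of all tested genes. The widest split was at Mrps18b, whose start lies 45 bp from that of Ppp1r10, a regulatory subunit of protein phosphatase 1. Ppp1r10 averaged 102 ± 2.13 CPM with CX-5461 and 31.5 ± 1.12 CPM with DMSO (SD, n = 3 each), a log2 change of 1.70 beside -0.82 for Mrps18b. Mrpl54 rose by 0.54 while Apba3, 26 bp away, changed by -0.62 (adjusted p = 1.766e-07). Mrpl51 and the condensin gene Ncapd2 rose together by 0.29 and 1.40, and Mrpl50 and Zfp189 fell together (-0.68 and -0.85). Mrps12 did not pass, while its neighbour Sars2, the mitochondrial seryl-tRNA synthetase, rose by 0.83 (adjusted p = 1.096e-06). Over the 22 pairs, which share libraries and promoter regions, Spearman's rho of the changes was 0.15.

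Promoter sequences, from RefSeq on GRCm38.p6, span 250 bases before to 50 after the start site and are shown for the largest rise and fall of each subunit, for Mrps21 and for Mrpl12, the member with the highest level per kb of exon. Capitals mark matches to the NRF1 motif (GCGCA, any base, then GCGC) or the ETS motif CCGGAAG, bound by GABP, on either strand. Both factors are known activators of nuclear genes for mitochondria.
Mrpl34 (chr8:71464676-71464975, plus strand): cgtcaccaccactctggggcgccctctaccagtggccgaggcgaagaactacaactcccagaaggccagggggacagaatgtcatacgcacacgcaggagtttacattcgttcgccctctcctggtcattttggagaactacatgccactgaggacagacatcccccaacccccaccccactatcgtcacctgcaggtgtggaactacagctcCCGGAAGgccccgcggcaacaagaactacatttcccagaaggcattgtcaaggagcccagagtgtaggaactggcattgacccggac
Mrps6 (chr16:92058086-92058385, plus strand): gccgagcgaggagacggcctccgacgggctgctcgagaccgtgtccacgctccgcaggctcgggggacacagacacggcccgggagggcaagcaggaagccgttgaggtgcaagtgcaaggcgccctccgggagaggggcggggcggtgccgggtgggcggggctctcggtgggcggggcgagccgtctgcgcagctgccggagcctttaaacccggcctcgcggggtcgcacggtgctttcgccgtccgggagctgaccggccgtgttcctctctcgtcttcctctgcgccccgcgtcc
Mrpl24 (chr3:87919294-87919593, plus strand): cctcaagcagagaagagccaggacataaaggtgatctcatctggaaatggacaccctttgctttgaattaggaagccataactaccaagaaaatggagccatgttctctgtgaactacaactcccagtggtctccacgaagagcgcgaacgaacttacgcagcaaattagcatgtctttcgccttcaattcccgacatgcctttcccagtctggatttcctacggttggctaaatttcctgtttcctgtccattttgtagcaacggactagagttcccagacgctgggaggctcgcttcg
Mrps18b (chr17:35916391-35916690, minus strand): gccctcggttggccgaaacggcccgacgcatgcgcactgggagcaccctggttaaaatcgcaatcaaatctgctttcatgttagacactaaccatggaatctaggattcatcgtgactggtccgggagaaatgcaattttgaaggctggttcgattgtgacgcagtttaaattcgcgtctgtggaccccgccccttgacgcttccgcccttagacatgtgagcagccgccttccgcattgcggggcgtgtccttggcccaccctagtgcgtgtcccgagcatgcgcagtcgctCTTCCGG
Mrps21 (chr3:95871465-95871764, minus strand): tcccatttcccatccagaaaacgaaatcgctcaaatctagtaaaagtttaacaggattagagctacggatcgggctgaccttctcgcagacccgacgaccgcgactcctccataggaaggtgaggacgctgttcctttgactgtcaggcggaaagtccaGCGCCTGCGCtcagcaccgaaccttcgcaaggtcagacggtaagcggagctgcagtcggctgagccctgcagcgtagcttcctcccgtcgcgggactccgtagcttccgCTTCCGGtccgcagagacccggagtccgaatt
Mrpl12 (chr11:120484387-120484686, plus strand): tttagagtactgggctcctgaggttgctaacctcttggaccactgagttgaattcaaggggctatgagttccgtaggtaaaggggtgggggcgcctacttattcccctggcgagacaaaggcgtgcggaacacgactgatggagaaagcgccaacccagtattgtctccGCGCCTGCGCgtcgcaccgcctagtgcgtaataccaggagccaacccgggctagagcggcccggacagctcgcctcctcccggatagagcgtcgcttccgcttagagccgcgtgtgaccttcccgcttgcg

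In these windows Mrpl34 and Mrps18b each held the ETS letters, Mrpl12 the NRF1 letters and Mrps21 both, while neither motif was found in the windows of Mrps6 and Mrpl24. So a rising and a falling member alike held the ETS letters. Promoters were found for 67 members, in 73 windows. The ETS letters occurred in 32.9% of them, in 17.3% of 11733 windows of tested genes and in 8.86% of all 32851 windows. The NRF1 letters occurred in 16.4%, 10.1% and 4.60% of the same sets, and the YY1 motif AAGATGGCG in 11.0%, 2.97% and 1.40%. No searched motif contains another. Of 23 tested members with the ETS letters 7 rose and 6 fell (median 0.06), and of 43 without them 10 rose and 22 fell (median -0.13). Of 12 with the NRF1 letters 3 rose and 5 fell (median -0.10), and of 54 without them 14 rose and 23 fell (median -0.03). Of 8 with the YY1 letters 1 rose and 2 fell (median -0.05), and of 58 without them 16 rose and 26 fell (median -0.06). Beside these counts stand the shares of all tested genes, 37.2% higher and 36.5% lower. Differences between members with and without a motif were not tested. A match describes the sequence and is not evidence of binding.

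Other genes of mitochondrial gene expression gave the setting, and are read beside the 36.5% of all tested genes that fell and the 37.2% that rose. Of 7 mitochondrial ribosomal proteins that carry other names, 5 fell and 1 rose (71.4% and 14.3%). Mrp63 and Ict1, both of the large subunit, changed by log2 -0.39 and -0.23, Dap3 of the small subunit fell by 0.15, and Ptcd3 rose by 0.15. Of 26 genes for assembly of the mitochondrial ribosome and modification of its RNA, 16 fell and 4 rose (61.5% and 15.4%). Their median was -0.28, beside -0.005 for all genes. Mrm1, a methyltransferase of the large mitochondrial ribosomal RNA, averaged 15.6 ± 0.19 CPM with CX-5461 and 36.9 ± 0.54 CPM with DMSO (SD, n = 3 each; log2 -1.24 ± 0.07, adjusted p = 2.23e-10). The pseudouridylation factors Rpusd3 and Ngrn changed by -0.98 and -0.81, and Malsu1 by -0.47. Translation factors were divided, 5 higher and 5 lower of 14 (35.7% each, near the shares of all tested genes). Their largest changes at 5 CPM or more were those of the elongation factor gene Tsfm (0.49) and the release factor gene Mtrf1l (-0.40). The other release factor gene, Mtrf1, did not pass (-0.07, adjusted p = 0.5391). Of 17 mitochondrial aminoacyl-tRNA synthetases 5 rose and 7 fell (29.4% and 41.2%), the falls near the share of all tested genes. Cars2 rose by log2 1.04, and Fars2 by 1.42, but Fars2 stood at -0.18 under scaling by gene span.

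Genes for mitochondrial transcription and DNA maintenance were mostly lower, 8 of 12 against 1 higher (66.7% and 8.33%, median -0.34). Over all tested genes 36.5% were lower and 37.2% higher. Polg2, the accessory subunit of the mitochondrial DNA polymerase, and Mterf, a termination factor gene, fell by 0.73 and 0.65 on the log2 scale, and Tfam, which packages mitochondrial DNA, by 0.27, whereas the polymerase gene Polrmt did not pass. Of 9 regulators of nuclear genes for mitochondria, 5 fell and 2 rose (55.6% and 22.2%). Gabpb1 averaged 22.2 ± 1.41 CPM with CX-5461 and 38.1 ± 3.11 CPM with DMSO (log2 -0.78 ± 0.08, adjusted p = 2.286e-07), and Pprc1, Nrf1, Gabpa and Yy1 also fell (-0.60, -0.42, -0.41 and -0.30). The coactivator gene Ppargc1a and the receptor gene Esrra rose (0.41 and 0.46).

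The transcripts that the mitochondrial ribosome translates were higher with CX-5461. All 10 tested mitochondrially encoded protein genes rose, beside 37.2% of all tested genes. Their median log2 change was 0.99, and mt-Cytb at 1.23 and mt-Nd4 at 1.13 led. Their sum was 35070, 29417 and 27524 CPM with CX-5461, against 16456, 17611 and 18087 CPM with DMSO. The groups did not overlap. Of these genes mt-Co2, mt-Co3 and mt-Atp6 were counted at only 0.77 to 1.77 CPM on average in either group, and mt-Nd3, mt-Nd4l and mt-Atp8 were too low to test, so the sum rests on the other 7. Cytosolic ribosomal protein genes, in contrast, fell in 52 and rose in 3 of 83 tested (62.65% and 3.61%, median -0.28), beside 36.5% and 37.2% of all tested genes. The cytosolic genes summed to 15421, 17620 and 16018 CPM with CX-5461, against 19771, 20142 and 19807 CPM with DMSO.

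**Figure D5:**
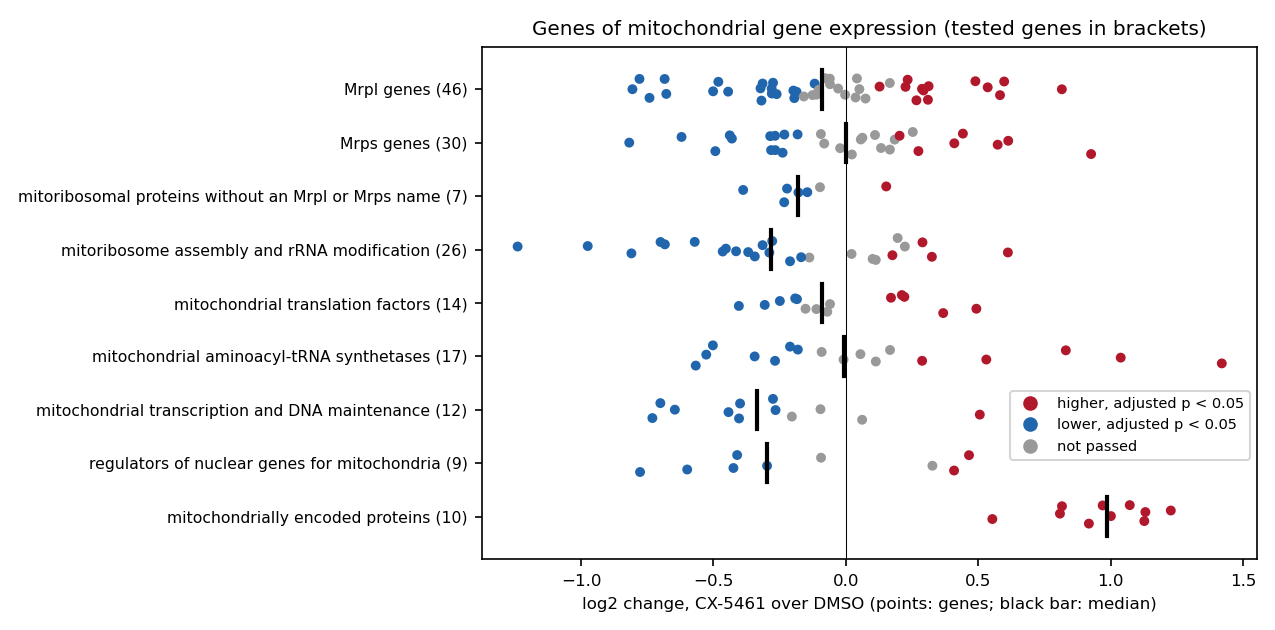
Log2 change (x axis, CX-5461 over DMSO) of each tested gene in 9 lists of mitochondrial gene expression, with a black bar at the median of each list and colours for the outcome of the test. The mitochondrially encoded genes lie between 0.55 and 1.23, while the assembly list is centred at -0.28 and the Mrpl and Mrps lists at -0.09 and 0.0004.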

How the data were processed

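RNA of 6 B16 libraries was analysed, 3 with CX-5461 and 3 with DMSO, grouped by the treatment labels. The authors deposited whole-number read counts per gene, not normalized, for 22740 genes. Per the submitters' processing notes the genome was GRCm38, also given as mm10. How reads were aligned and counted, with or without strand, is not given in the sources used here, so genes that overlap or have near-identical copies are uncertain. Library totals were 17573990 to 22908309 counts. TMM factors were 0.970 to 1.03.

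From these counts, edgeR 4.0.16 (R 4.3.3) kept 12198 genes by filterByExpr with a minimum count of 10. Its quasi-likelihood F test compared CX-5461 with DMSO, with no covariate, two-sided, and p-values were Benjamini-Hochberg adjusted over all tested genes with a threshold of 0.05. The procedure was also run on simulated counts, drawn with the variability estimated from these libraries. Far fewer genes changed there than were called here, so that run cannot show how reliable these calls are. Alternatives were RLE, upper-quartile and no scaling factors, other filters, DESeq2 1.42.0, limma 3.58.1 (voom), a replicate block, trends with GC content, gene span or coding length, and 6 fits with 1 library left out. The lowess span was 0.3. The coding-length trend and the fits without Mrps36-ps1 were added after the data were seen. Lengths and overlaps came from GENCODE M21 (GRCm38), matched by Ensembl ID for 76 of 77 members, and promoters from RefSeq.

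Named members are the 5 largest rises and 5 largest falls past the threshold in each subunit, the 3 highest levels per kb in each, and a set of paralogs and members of known role, with the 2 largest called changes in each other list among genes whose higher group averaged at least 5 CPM. Other genes are named by region, by neighbour or as examples after their values were seen. The members and gene lists were chosen with earlier results of these data known.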

Additional observations from a re-analysis of the deposited data

How the results depend on the processing

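Over 19 ways of processing, 17 of the 20 rises and 24 of the 31 falls of the members passed in every one, and all 51 kept their sign. Scaling and offsets moved the centre. The median change of the members was -0.143 by library totals and 0.000 with the gene-span trend, and that of Mrpl genes -0.164 and -0.018. The median of all genes was 0.003 with upper-quartile factors, -0.079 by library totals, 0.052 with no filter, -0.010 with the coding-length trend, -0.008 with GC trend and replicate block, and -0.009 to 0.000 with 1 library left out. With the gene-span trend 12 of 30 Mrps genes rose, against 7 in the main fit, while slightly fewer of all tested genes rose. Without members that overlap another counted gene 12 Mrpl genes fell, against 19 in the main fit. That set holds fewer Mrpl genes, so the lower count does not show a smaller share of falls. The Mrpl minus Mrps median was -0.091, but 0.021 without overlapping members, -0.039 by structure, -0.069 without Mrps36-ps1, and -0.096 to -0.029 with 1 library left out. The cause was not tested. Of the single named genes, 852 values kept direction and side of the threshold, 23 lost and 8 gained the call, and 10 reversed.

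Among the named genes, these values reversed, none past the threshold. Mrpl12 was at -0.032 by library totals, -0.012 with the GC trend, -0.013 with GC trend and block, and -0.038 to 0.086 with 1 library left out, the lowest without CX-5461 replicate 2. Mrps18a was at -0.011 by library totals. Mrps23 was at -0.017 by library totals, -0.015 with the GC trend and -0.014 with GC trend and block. Mrps36 was at -0.124 to 0.320 with 1 library left out, the lowest again without CX-5461 replicate 2, and Fars2 at -0.176 with the gene-span trend.

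Replicate numbers did not pair the libraries, as same-numbered libraries had correlations of their deviations of 0.0364, 0.00368 and -0.00843, and CX-5461 replicate 2 correlated best with DMSO replicate 3 (0.0347). With the replicate block 21 members rose and 31 fell, Mrpl44 had an adjusted p of 0.0869 and Mrps12 of 0.04756 (edgeR). Mrpl53, Mrpl23 and Mrps36 had the lowest counts of the members. Mrpl53 shares 88.0% of its exonic bases with Gm42688, and Mrps36 has the pseudogene entry Mrps36-ps1. The parts of depth and of shared sequence in those low counts were not tested.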
